A study of Homo sapiens with 6 samples.

Results

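NB4 is an established human cell line from acute promyelocytic leukemia (APL). The libraries described here are the 2 LacZ control libraries of NB4 cells, taken by their labels from 6 libraries in 3 groups of 2, and no contrast between groups was made. The other groups carried a small guide RNA (sgRNA) against ARID1A, a DNA-binding component of SWI/SNF, the complex that moves nucleosomes. Per the study's methods, the cells of every group carried Cas9 with an mCherry reporter and an inducible sgRNA vector with a GFP reporter, and cells with both colours were sorted. The LacZ sgRNA was directed against a bacterial gene with no counterpart in the human genome, and the genotype of these cells was labelled WT. All groups, LacZ cells included, were given 1 µg/ml doxycycline for 7 days, and RNA was taken after a further 2 days without the drug, per the study's methods. The baseline below is therefore that of sorted, lentivirally transduced NB4 cells after doxycycline and not that of the parental line. Nothing in the labels says whether replicates 1 and 2 came from separate cultures, so the spread between them may be technical.

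Promyelocytes are the stage of granulocyte development at which primary (azurophil) granules are filled. Their granules hold myeloperoxidase, a family of serine proteases and antimicrobial peptides, whereas proteins of the secondary and tertiary granules are normally made at later stages. The transcription factors PU.1, C/EBPα and MYB drive the primary granule genes, and C/EBPε is needed for the secondary granule genes. In APL, a translocation fuses PML to the retinoic acid receptor RARA, and the fusion protein holds cells at the promyelocyte stage until all-trans retinoic acid releases the block.

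RNA levels are given as TPM, the usual per-library share of transcripts, which are scaled by transcript length so that genes within a library can be set side by side. TPM values of all transcripts of a gene were summed. A gene was called on at 1 TPM or more in both libraries, silent below 0.1 TPM in both, and low in between. Values are written as replicate 1 and then replicate 2. The LacZ libraries held 53712098 and 52202084 estimated counts, and 13907 of 52992 genes were on. Of 19428 protein-coding genes, 11096 (57.1%) were on and 5027 (25.9%) were silent, and the median protein-coding gene had a mean of 3.68 TPM. Counts over the gene lists below are to be read against these shares. ARID1A (chromosome 1, 26693236 to 26782110, GRCh38), the gene targeted in the other groups, stood at 29.6 and 35.1 TPM. In RNA from a bulk population, a lower level in every cell and a smaller share of cells with the RNA cannot be told apart.

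Of the 5 promyelocyte markers taken for these cells, 4 were on and ELANE was not. MPO, myeloperoxidase, stood at 6913 and 7769 TPM. PRTN3, proteinase 3, stood at 684 and 731 TPM. CEBPA and CEBPE, which encode C/EBPα and C/EBPε, stood at 102 and 114 TPM and at 67.1 and 64.1 TPM. ELANE, neutrophil elastase, is a defining product of promyelocytes, and here it had only 9 and 8 estimated counts, or 0.290 and 0.265 TPM. So 4 of the 5 markers were on, with elastase RNA nearly absent. The markers belong to lists chosen with earlier results of these data known, so this count is no independent check of the label.

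The promoters of the serine protease genes that were on are shown because members of this family are usually transcribed together in promyelocytes while ELANE was not on here. Each sequence is the RefSeq promoter on GRCh38.p14, from 250 bases before to 50 bases after the annotated start, read 5′ to 3′ on the strand of the gene. Capitals mark matches on either strand to GAGGAA, the core letters of a PU.1 motif, to TTNNGNAA, a C/EBP motif, and to CAACNG, a MYB motif. The windows are chr19:840749-841048 (plus strand) for PRTN3, chr19:827587-827886 (plus strand) for AZU1, chr14:24576201-24576500 (minus strand) for CTSG and chr19:695403-695702 (minus strand) for PRSS57.
PRTN3: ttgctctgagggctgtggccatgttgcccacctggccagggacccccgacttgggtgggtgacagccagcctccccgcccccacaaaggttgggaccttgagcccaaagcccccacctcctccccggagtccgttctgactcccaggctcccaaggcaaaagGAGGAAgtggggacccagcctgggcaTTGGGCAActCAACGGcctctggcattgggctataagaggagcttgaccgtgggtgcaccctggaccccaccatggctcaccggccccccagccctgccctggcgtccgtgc
AZU1: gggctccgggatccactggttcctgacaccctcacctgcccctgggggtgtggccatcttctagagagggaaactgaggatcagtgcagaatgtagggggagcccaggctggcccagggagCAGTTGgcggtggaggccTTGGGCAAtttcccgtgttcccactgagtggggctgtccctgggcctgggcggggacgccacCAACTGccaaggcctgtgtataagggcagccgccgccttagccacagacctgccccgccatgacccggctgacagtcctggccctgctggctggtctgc
CTSG: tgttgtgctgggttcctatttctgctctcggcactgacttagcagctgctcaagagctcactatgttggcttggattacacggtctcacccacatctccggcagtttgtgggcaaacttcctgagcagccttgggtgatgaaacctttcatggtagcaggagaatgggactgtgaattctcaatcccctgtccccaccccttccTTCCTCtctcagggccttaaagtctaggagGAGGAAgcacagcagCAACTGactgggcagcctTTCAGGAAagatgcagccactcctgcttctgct
PRSS57: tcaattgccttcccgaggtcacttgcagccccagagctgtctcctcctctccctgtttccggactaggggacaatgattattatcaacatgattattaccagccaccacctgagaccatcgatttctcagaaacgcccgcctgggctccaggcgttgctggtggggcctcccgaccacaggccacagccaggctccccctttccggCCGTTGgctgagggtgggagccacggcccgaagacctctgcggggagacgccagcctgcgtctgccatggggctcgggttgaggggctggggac

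In the PRTN3 promoter, the PU.1 letters began at position -88, the C/EBP letters at -62 and the MYB letters at -52 relative to the start. The C/EBP match was TTGGGCAA in both PRTN3 and AZU1, at -62 and -111. AZU1 held 2 MYB matches and no PU.1 match. CTSG held 2 PU.1 matches, 1 C/EBP match and 1 MYB match, and PRSS57 held only a MYB match. Among 35116 promoters of the same length, 27.9% held the PU.1 letters, 36.8% the C/EBP letters and 32.9% the MYB letters. All 3 motifs were found together in 3.78% of those promoters, and PRTN3 and CTSG were among them. These are matches of letters in a short window and do not show binding. The ELANE and MPO promoters were not examined.

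To describe which RNAs made up the transcriptome of these cells, genes were ranked by mean TPM. MPO ranked 10 among all genes and 3 among nuclear genes. The genes above it encode mitochondrial subunits of the respiratory chain and ATP synthase, the ribosomal protein RPL18 and the elongation factor EEF1A1. RPL18 stood at 12872 and 12303 TPM and EEF1A1 at 8474 and 7623 TPM. MPO alone took 0.691% and 0.777% of all TPM and 1.52% and 1.70% of gene counts. It lies on chromosome 17 from 58269856 to 58280935 (GRCh38), and 87.4% of its TPM was assigned to a single protein-coding transcript.

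The 13 mitochondrial mRNAs together took 9.69% and 10.9% of TPM, and the 85 ribosomal protein genes took 18.3% and 17.0%. The 10 most abundant genes took 10.5% and 11.5%, and the 100 most abundant took 34.3% and 34.0%. The 1000 most abundant genes held 62.0% and 61.9% of TPM, and the 13907 genes that were on held 93.3% and 93.1%. Mitochondrial RNA took the larger share in replicate 2 and ribosomal protein RNA in replicate 1. MT-ATP6, an ATP synthase subunit, led the mitochondrial mRNAs by its mean, at 12865 and 14850 TPM. MT-CO2, a cytochrome c oxidase subunit, stood at 12982 and 14702 TPM, and this pair could not be ordered.

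Outside ribosomal protein, mitochondrial and translation factor genes, MPO ranked at the top and was followed by TMSB4X, TPT1, PPIA, ACTB, GAPDH and NPM1. TMSB4X, which encodes the actin-binding peptide thymosin β4, stood at 5038 and 4442 TPM. ACTB, cytoplasmic actin, stood at 3751 and 3649 TPM. NPM1, a nucleolar chaperone and a frequent target of mutation in other acute myeloid leukemias, stood at 3381 and 3368 TPM. SRGN encodes serglycin, the proteoglycan core on which granule proteins are packed, and stood at 2156 and 1792 TPM. CALR, the endoplasmic reticulum chaperone calreticulin, which assists the folding of myeloperoxidase, stood at 1541 and 1732 TPM. So 2 further genes of the secretory and granule machinery were among the 20 most abundant genes of this kind. Among genes annotated as lincRNA or antisense, the host transcripts ZFAS1 (420 and 343 TPM) and SNHG8 (252 and 265 TPM) were highest, and PVT1, the neighbour of MYC, reached 194 and 163 TPM. LRRC75A-AS1, a non-coding RNA outside those annotation types, was higher at 1620 and 1436 TPM.

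Primary granule proteins were the most abundant lineage products, and 11 of 14 listed genes were on, against 57.1% of protein-coding genes as a whole. Their summed level was 8889 and 9693 TPM (9291 ± 569, SD, n = 2), most of it MPO. PRTN3 was 10.1-fold and 10.6-fold below MPO and above the other proteases. RNASE2, the eosinophil-derived neurotoxin, stood at 487 and 411 TPM. RNASE2 and RNASE3, both named for eosinophils, were counted in this list and not in the eosinophil list. AZU1, azurocidin, an inactive protease homologue with antimicrobial activity, stood at 302 and 292 TPM. The ranges of these genes did not overlap, so their order from MPO through PRTN3 and RNASE2 to AZU1 was the same in both libraries.

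CTSG, cathepsin G, stood at 164 and 158 TPM, which was below AZU1 in both libraries. PRSS57, which encodes the serine protease NSP4, stood at 126 and 139 TPM. LYZ, lysozyme, stood at 126 and 120 TPM and could not be ordered against PRSS57, since their ranges overlapped. RNASE3, the eosinophil cationic protein, stood at 29.1 and 25.8 TPM. The neutrophil defensins DEFA1, DEFA1B and DEFA3 encode near-identical peptides, and only their sum can be read with confidence, which was 39.4 and 34.0 TPM. DEFA4, which encodes a more distinct defensin, stood at 16.7 and 13.0 TPM. BPI, the bactericidal permeability-increasing protein, stood at 0.265 and 0.354 TPM, in the range of ELANE.

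**Figure D1:**
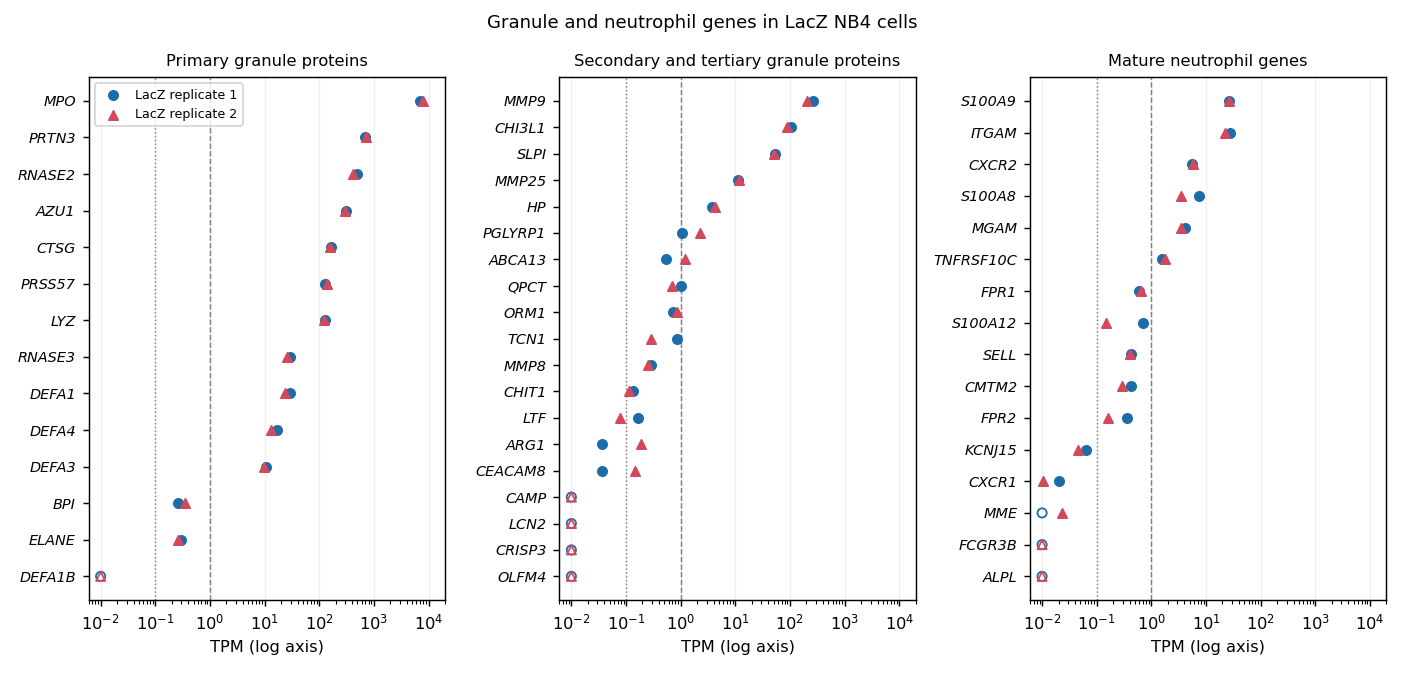
Granule and neutrophil genes in LacZ NB4 cells, with TPM on a log axis, a circle for replicate 1 and a triangle for replicate 2. Open symbols at the left edge are values below 0.01 TPM. The dashed line marks 1 TPM and the dotted line 0.1 TPM. Primary granule genes other than DEFA1B reach from MPO at 6913 and 7769 TPM down to ELANE at 0.290 and 0.265 TPM. DEFA1B lies below 0.01 TPM in both libraries. Most secondary and tertiary granule genes and most mature neutrophil genes lie below 1 TPM.

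The plot of granule genes shows how far ELANE stood from its family. Its exact 95% Poisson intervals, which cover counting error only, were 0.133 to 0.550 TPM and 0.114 to 0.522 TPM. PRTN3 was 2361-fold and 2756-fold above ELANE, AZU1 1043-fold and 1101-fold, and MPO 23842-fold and 29301-fold. Both libraries therefore placed ELANE below 1 TPM even at the upper bound. In the 4 ARID1A-deficient libraries, ELANE had between 1 and 5 counts, so near absence of elastase RNA was shared by all 6 libraries.

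ELANE lies in a cluster of granule protease genes on chromosome 19 (GRCh38), and its neighbours were examined after its values had been seen. PRSS57 (685546 to 695498, minus strand) lies at the far end of the stretch examined, and AZU1 (825097 to 832018, plus strand) and PRTN3 (840960 to 848175, plus strand) come next to ELANE. ELANE (851014 to 856247, plus strand) starts 2838 bases after the end of PRTN3. CFD, which encodes complement factor D, starts 3395 bases after the end of ELANE and stood at 34.6 and 30.5 TPM. PTBP1, a splicing regulator upstream of AZU1, stood at 319 and 344 TPM, and PLPPR3 stood at 65.9 and 70.7 TPM. MED16, a Mediator subunit beyond CFD, stood at 25.6 and 28.8 TPM. PALM and MISP, which lie between PRSS57 and PTBP1, stood at 5.23 and 4.35 TPM and at 0 and 0.0091 TPM. MISP was lower than ELANE in both libraries, so ELANE was not the only gene of this stretch below 1 TPM. ELANE was thus below 1 TPM between neighbours at 684 and 731 TPM on the one side and 34.6 and 30.5 TPM on the other. Both ELANE transcripts of the annotation were in the deposited tables. Transcripts without a match to the annotation were left out, and whether any of them took reads of ELANE was not tested.

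Genes that package or mature granule proteins were nearly all on (10 of 11, beside 57.1% of all protein-coding genes). The exception was ELANE, which is a member of this list as well. CTSC, the dipeptidyl peptidase that activates the granule serine proteases, stood at 283 and 271 TPM. HAX1 and G6PC3, in which mutations cause severe congenital neutropenia, stood at 124 and 131 TPM and at 65.6 and 68.8 TPM. SERPINB1, the cytosolic inhibitor of elastase, cathepsin G and proteinase 3, stood at 32.7 and 30.1 TPM. CTSC and SERPINB1 were thus on in cells in which ELANE was not. Haem, the cofactor of myeloperoxidase, is made by enzymes of which 8 of 9 were on, beside the same 57.1%. Whether the genes of these 2 lists are on in other cell types was not tested. ALAS1, the housekeeping form of the rate-limiting enzyme, stood at 111 and 96.4 TPM, whereas ALAS2, the erythroid form, stood at 0.118 and 0.124 TPM.

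Secondary and tertiary granule proteins were mostly below 1 TPM, with 6 of 19 on, 9 low and 4 silent. LCN2 (lipocalin 2), CAMP (cathelicidin), CRISP3 and OLFM4, all products of the secondary granule, had 0 counts in both libraries. Limits were taken at the median effective length of protein-coding transcripts. There, 3 counts would correspond to 0.115 TPM for LCN2, 0.130 for CAMP, 0.0548 for CRISP3 and 0.0270 for OLFM4. Levels up to those limits remain possible, and higher ones where counts would fall on a shorter transcript. LTF, lactoferrin, which defines the secondary granule, stood at 0.165 and 0.0785 TPM. MMP8, neutrophil collagenase, stood at 0.285 and 0.252 TPM. CEACAM8, the surface antigen CD66b, stood at 0.0366 and 0.147 TPM.

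The exceptions in this list were few and some were high. MMP9, the gelatinase of tertiary granules, stood at 265 and 206 TPM, above CTSG in both libraries. CHI3L1, a chitinase-like glycoprotein of secondary granules, stood at 103 and 87.5 TPM, with 63.7% of it in protein-coding transcripts. SLPI, a secreted inhibitor of elastase and cathepsin G, stood at 53.8 and 50.3 TPM. MMP25, a membrane-anchored metalloproteinase of leukocytes, stood at 11.3 and 11.8 TPM. HP, haptoglobin, and PGLYRP1, a peptidoglycan recognition protein, passed 1 TPM by less, at 3.82 and 4.18 TPM and at 1.06 and 2.27 TPM. Secondary granule genes at 0 counts and a gelatinase at 265 and 206 TPM were therefore found in the same RNA.

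Of 16 genes of mature neutrophils, 6 were on and 5 were silent, beside 57.1% on and 25.9% silent among all protein-coding genes. S100A9, a subunit of calprotectin, stood at 26.9 and 26.2 TPM, and its partner S100A8 at 7.44 and 3.44 TPM. ITGAM, which encodes CD11b, the surface antigen used to follow differentiation of NB4 cells, stood at 27.6 and 21.8 TPM. CXCR2, an interleukin 8 receptor, was on at 5.62 and 5.89 TPM, whereas its paralogue CXCR1 was silent at 0.0208 and 0.0106 TPM. FCGR3B, the Fc receptor CD16b, and ALPL, the leukocyte alkaline phosphatase, had 0 counts, for which the limits of 3 counts were 0.0634 and 0.0345 TPM. Of these markers of late maturation, FCGR3B, ALPL and CXCR1 were therefore silent, while CD11b and S100A9 exceeded 20 TPM.

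By contrast, all 6 subunits of the phagocyte NADPH oxidase were on. CYBA and CYBB, the membrane subunits, stood at 429 and 473 TPM and at 103 and 92.5 TPM. The GTPase RAC2 stood at 302 and 260 TPM and NCF4 at 184 and 176 TPM. NCF1, p47phox, stood at 27.8 and 22.9 TPM, but NCF1 has near-identical pseudogenes with which reads can be shared. The subunits of the complex were thus far from equal in RNA level.

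Myeloid transcription factors were on almost without exception (21 of 23, 2 low, 0 silent), with a median of 60.8 TPM. MYC, a driver of proliferation, was the highest at 514 and 577 TPM. SPI1, which encodes PU.1, the regulator required for the whole myeloid lineage, stood at 233 and 225 TPM. MYB, a regulator of progenitor growth, stood at 194 and 168 TPM. These 3 factors kept the same order in both libraries without overlap of their ranges.

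**Figure D2:**
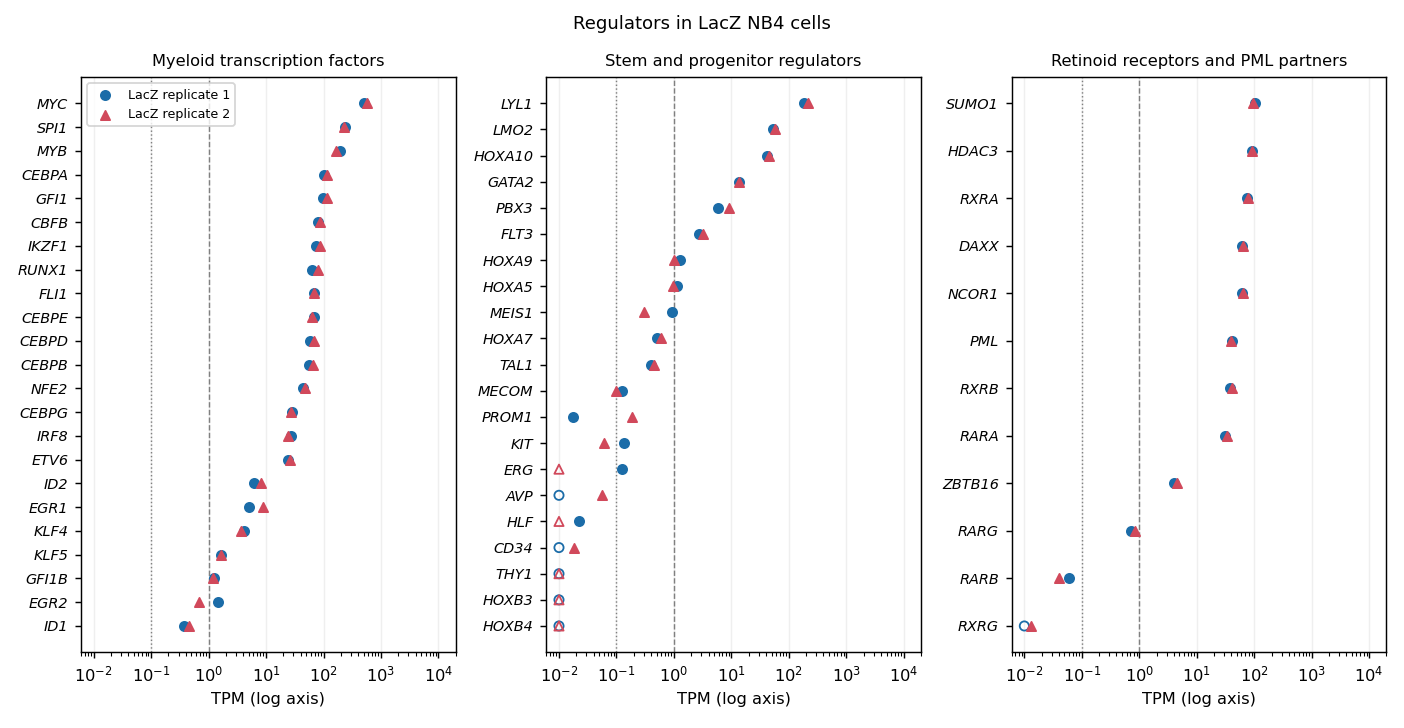
Regulators in LacZ NB4 cells, with TPM on a log axis, a circle for replicate 1 and a triangle for replicate 2. Open symbols at the left edge are values below 0.01 TPM, the dashed line marks 1 TPM and the dotted line 0.1 TPM. Of the myeloid transcription factors, 21 of 23 lie above 1 TPM in both libraries, and 14 of 21 stem and progenitor regulators do not. In the right panel, 12 of 13 listed genes are drawn.

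CEBPA (102 and 114 TPM) and GFI1 (99.2 and 116 TPM), a repressor required for granulocyte development, could not be ordered. CBFB, IKZF1, RUNX1 and FLI1 followed between 63.4 and 86.7 TPM, and each overlapped its neighbour. CEBPE at 67.1 and 64.1 TPM, CEBPD at 57.7 and 68.5 TPM and CEBPB at 54.8 and 66.9 TPM overlapped as well, so that none of these 3 genes stood apart from the others. CEBPG was lower at 28.6 and 27.6 TPM. CEBPE was thus below CEBPA and not separable from CEBPD and CEBPB, while the LTF, LCN2 and CAMP genes that depend on it in normal granulocytes were low or without counts. IRF8 and KLF4, both associated with the monocyte branch, stood at 26.9 and 23.9 TPM and at 4.17 and 3.63 TPM. EGR1 and EGR2, further factors of that branch, stood at 4.97 and 8.98 TPM and at 1.45 and 0.686 TPM. The plot of regulators shows these 4 factors below CEBPA, CEBPE and GFI1 in both libraries.

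Of 21 stem and progenitor regulators, 7 were on, 8 were low and 6 were silent. CD34, the surface antigen of hematopoietic progenitors, had 0 and 2 counts. KIT, the stem cell factor receptor, stood at 0.135 and 0.0595 TPM, and KIT fell under 0.1 TPM in both libraries when only protein-coding transcripts were summed. THY1, HOXB3 and HOXB4 had 0 counts in both libraries, with limits of 0.184, 0.0488 and 0.0205 TPM. MEIS1, the homeobox partner of HOXA9 in other leukemias, stood at 0.929 and 0.300 TPM. LYL1, a basic helix-loop-helix factor of the hematopoietic stem cell programme, was the highest of the list at 180 and 212 TPM. LMO2, its LIM-domain partner, stood at 53.9 and 58.5 TPM, and GATA2 at 13.4 and 13.6 TPM. Within the HOXA cluster the levels were uneven: HOXA10 stood at 40.9 and 45.3 TPM, HOXA9 at 1.26 and 1.00 TPM, HOXA5 at 1.14 and 0.979 TPM and HOXA7 at 0.499 and 0.584 TPM. HOXA10 was 32.4-fold and 45.2-fold above HOXA9, although only 59.1% of its TPM was in protein-coding transcripts, and overlapping transcripts of this cluster may share reads.

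To describe the retinoid axis that APL therapy acts on, receptors and partners of PML were listed, and 10 of 13 were on. The tables held no transcript of the PML-RARA fusion, so that reads of the fusion can only have been assigned to the parts of PML and RARA or to none. PML stood at 40.8 and 40.2 TPM and RARA at 31.0 and 33.7 TPM. RXRA, the dimer partner of RARA, stood at 73.8 and 79.3 TPM, and RXRB at 37.8 and 41.2 TPM. The corepressor NCOR1, which unliganded receptors recruit with HDAC3, stood at 60.2 and 65.1 TPM. RARG was low at 0.730 and 0.836 TPM, and RARB and RXRG were silent. ZBTB16, which encodes PLZF, the partner of RARA in a rarer form of APL, stood at 3.98 and 4.58 TPM. RARA and RXRA were therefore the main retinoid receptor RNAs of their subfamilies.

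Of 14 genes known to respond to retinoids, 7 were on, 4 were low and 3 were silent in these cells, for which the labels name no retinoic acid, shares near those of all protein-coding genes (57.1% on and 25.9% silent). PRAM1, an adaptor protein named for its regulation by PML-RARA, stood at 103 and 95.2 TPM, with 69.6% of it in protein-coding transcripts. ICAM1, an adhesion ligand, stood at 48.1 and 34.4 TPM, and CD38, an ectoenzyme, at 8.83 and 8.58 TPM. CYP26A1, the retinoic acid hydroxylase that is a standard read-out of receptor activity, was silent at 0.0369 and 0.0189 TPM. TGM2, tissue transglutaminase, which rises strongly in NB4 cells given retinoic acid, stood at 0.230 and 0.184 TPM. DHRS3, a retinal reductase, had 0.196 and 0 TPM. STRA6, a vitamin A transporter, was on at 6.20 and 4.81 TPM, and CRABP2, a cytosolic carrier of retinoic acid, at 2.14 and 2.16 TPM.

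Myeloid surface receptors were on in 17 of 20 cases. ANPEP, the aminopeptidase CD13, was the highest at 486 and 519 TPM. CD44, the hyaluronan receptor, stood at 171 and 135 TPM, and TFRC, the transferrin receptor, at 131 and 136 TPM. CD33, the antigen targeted by gemtuzumab, stood at 74.7 and 72.9 TPM. Blasts of APL are commonly described as positive for CD13 and CD33 with little CD34. FCGR1A, the high-affinity Fc receptor CD64, stood at 40.1 and 30.8 TPM, and FCGR2A at 23.1 and 20.1 TPM. FCGR3A, the Fc receptor CD16a, had 0 counts, with a limit of 0.0377 TPM. CLEC12A, a receptor of normal and leukemic myeloid cells, was lower at 4.13 and 3.21 TPM.

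**Figure D3:**
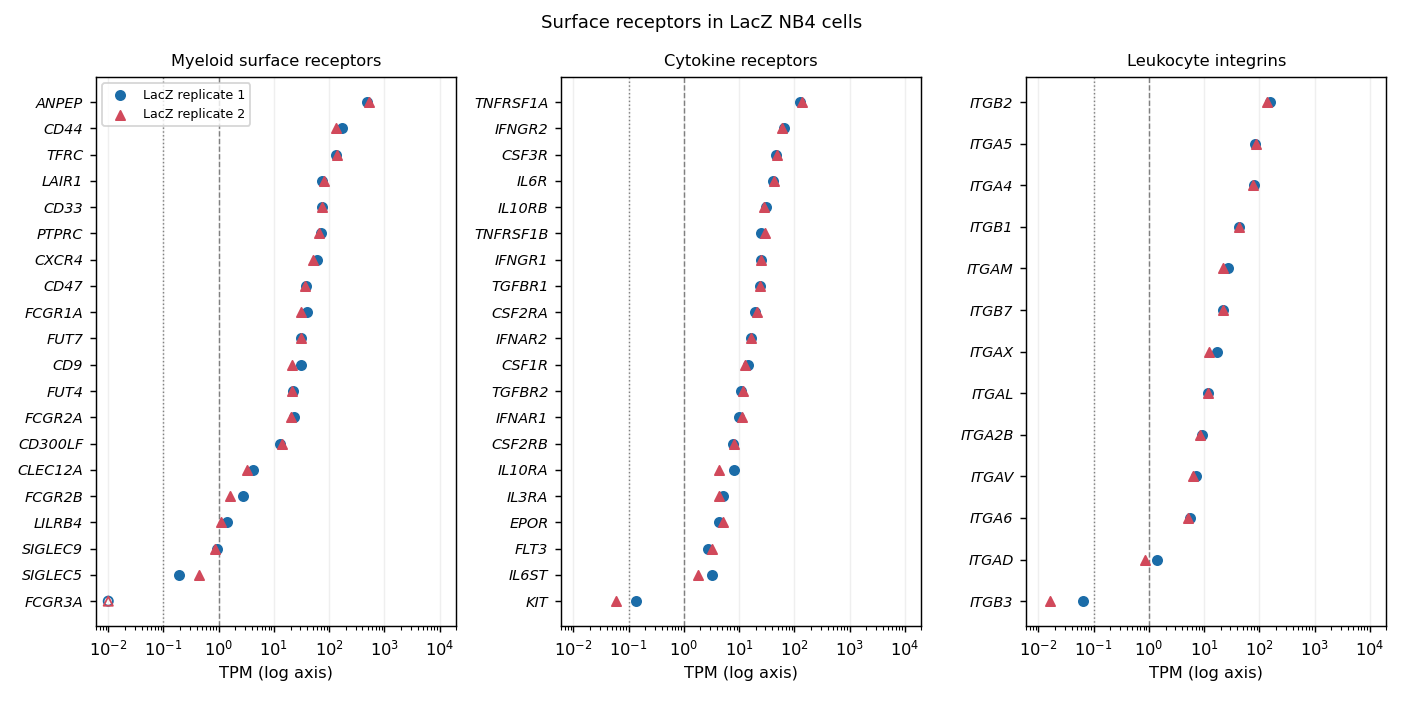
Surface receptors in LacZ NB4 cells, with TPM on a log axis, a circle for replicate 1 and a triangle for replicate 2. Open symbols at the left edge are values below 0.01 TPM, the dashed line marks 1 TPM and the dotted line 0.1 TPM. ANPEP leads the myeloid receptors at 486 and 519 TPM, 19 of 21 cytokine receptor genes are on with KIT low and 1 further gene not drawn, and 11 of 13 integrin genes are on.

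Cytokine receptor genes were on in 19 of 21 cases, and KIT was low, as the plot of receptors shows. CSF3R, the receptor of granulocyte colony-stimulating factor, stood at 46.0 and 49.2 TPM, although only 33.5% of that was in protein-coding transcripts. CSF2RA and CSF2RB, the chains of the GM-CSF receptor, stood at 19.8 and 21.4 TPM and at 7.90 and 8.07 TPM. IL3RA, the interleukin 3 receptor chain CD123, stood at 5.17 and 4.43 TPM. CSF1R, the macrophage colony-stimulating factor receptor, stood at 14.8 and 13.0 TPM, with 36.5% of it in protein-coding transcripts. FLT3, a receptor of early progenitors, stood at 2.74 and 3.22 TPM. TNFRSF1A was the highest of the list at 128 and 138 TPM, and IFNGR2 followed at 65.4 and 60.0 TPM. Receptor RNAs for the granulocyte factor were thus above those for interleukin 3 and FLT3 ligand.

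Among leukocyte integrins, 11 of 13 were on. ITGB2, the β2 chain CD18, stood at 156 and 135 TPM, above each of its α partners. ITGAM (27.6 and 21.8 TPM), ITGAX (17.1 and 12.1 TPM) and ITGAL (11.8 and 11.8 TPM) followed in that order without overlap, but ITGAX and ITGAL overlapped when only protein-coding transcripts were summed. ITGA4 and ITGA5, the α4 and α5 chains that bind VCAM-1 and fibronectin, stood at 79.2 and 76.9 TPM and at 84.1 and 86.6 TPM. ITGA2B, the platelet integrin chain CD41, was on at 9.26 and 8.40 TPM, whereas its partner ITGB3 was silent at 0.0643 and 0.0165 TPM.

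APL is known for bleeding and fibrinolysis, and 7 of 10 genes followed in that context were on, beside 57.1% of all protein-coding genes. ANXA2 and S100A10, which together form a surface receptor for plasminogen and its activator, stood at 136 and 141 TPM and at 89.7 and 77.1 TPM. PLAU, urokinase, stood at 27.3 and 28.1 TPM and its receptor PLAUR at 23.1 and 19.6 TPM. F3, tissue factor, stood at 20.3 and 18.6 TPM, with 50.7% of it in protein-coding transcripts. PDPN, podoplanin, a platelet activator described on APL blasts, was silent at 0.0183 and 0.00934 TPM.

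Of 8 genes followed in APL blasts, 6 were on and 2 were silent, beside 57.1% on and 25.9% silent among all protein-coding genes. STAB1, the scavenger receptor stabilin, stood at 97.5 and 104 TPM. WT1, a zinc finger factor raised in many leukemias, stood at 29.1 and 30.7 TPM. HGF, hepatocyte growth factor, stood at 19.3 and 15.5 TPM. MST1 stood at 28.7 and 27.2 TPM, but only 18.4% of that was in protein-coding transcripts. FGF13 had 0 counts, with a limit of 0.1004 TPM, and PTGDS, a prostaglandin D synthase, was silent at 0.0577 and 0 TPM. No APL blasts were measured here, so whether these levels differ from those of blasts was not tested.

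Absence of HLA-DR is a diagnostic feature of APL, and the MHC class II genes were compared with class I. HLA-DRA, the invariable chain of HLA-DR, stood at 0.386 and 0.0668 TPM, and 4 of 10 class II genes were on. CD74, the class II invariant chain, was the highest at 21.5 and 15.0 TPM. HLA-DRB1 stood at 1.55 and 1.99 TPM. CIITA, the class II transactivator, stood at 1.69 and 1.32 TPM, but only 12.5% of that was in protein-coding transcripts, and 2 class II genes remained on when only such transcripts were summed. All 8 class I genes were on, and 7 of them when only protein-coding transcripts were summed. HLA-B stood at 195 and 153 TPM and HLA-C at 113 and 102 TPM. B2M, the light chain of class I, stood at 3002 and 2671 TPM, and just 0.703% of that was assigned to protein-coding transcripts. Levels of the polymorphic HLA genes are uncertain, since transcripts without a match to the annotation were left out and near-identical genes can share reads.

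S100 calcium-binding proteins were on in 7 of 8 cases. S100A4, associated with motility, stood at 808 and 751 TPM, S100A11 at 448 and 392 TPM and S100P at 307 and 246 TPM, the last with 39.4% in protein-coding transcripts. S100A4 was 30.1-fold and 28.7-fold above S100A9. The calprotectin genes that dominate mature neutrophils were thus well below the leading S100 RNAs.

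Genes that mark other lineages were examined next, in 9 lists with 112 distinct genes, of which 111 were in the tables and MRC1 was not. Of these, 44 were silent, 36 were low and 31 were on, so 27.9% were on and 39.6% silent, against 57.1% and 25.9% of all protein-coding genes. The silent genes included 20 with 0 counts in both libraries, for which 3 counts would correspond to 0.0277 to 0.368 TPM. For 13 of the 20 that limit was above 0.1 TPM, so the depth did not show them to be below the limit used for silent genes. The lists were chosen as markers of other cells and are not a sample of all genes.

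**Figure D4:**
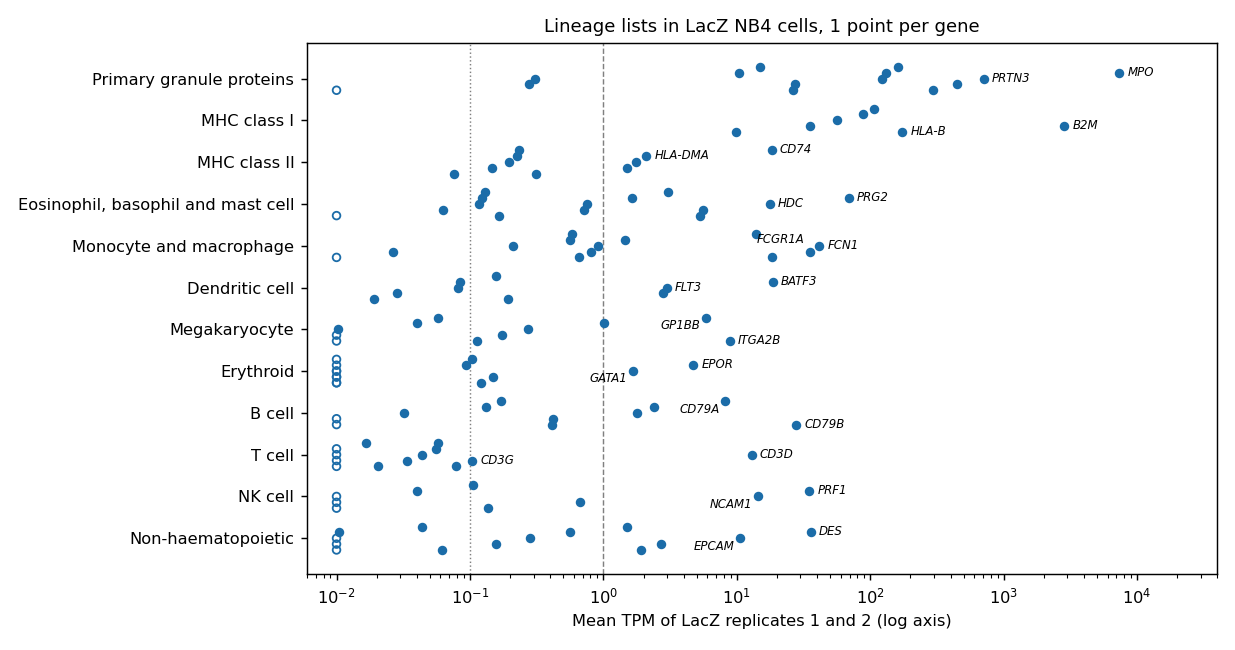
Lineage lists in LacZ NB4 cells, with 1 point per gene at its mean TPM over both libraries on a log axis and the highest 2 genes of each list named, apart from 4 listed genes that are not drawn. Open points are means below 0.01 TPM, the dashed line marks 1 TPM and the dotted line 0.1 TPM. Of the T cell genes, 11 of 13 are silent with CD3D alone above 1 TPM. PRG2, FCN1, DES, PRF1 and CD79B have the highest means of their lists, with FCGR1A close below FCN1.

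T cell genes were silent in 11 of 13 cases, the largest share among these 9 lists. CD7, a T cell antigen also found on some myeloid leukemias, had 0 counts, with a limit of 0.0668 TPM. CD2, an adhesion receptor described in some APL, stood at 0.0335 and 0.0343 TPM. CD3D, a chain of the T cell receptor complex, was the exception at 13.6 and 12.2 TPM, of which 75.2% was in protein-coding transcripts. Its partners CD3E and CD3G stood at 0.0410 and 0 TPM and at 0.0794 and 0.129 TPM. CD3D was therefore on without CD3E or CD3G.

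Erythroid genes were silent in 9 of 14 cases, and 8 of these had 0 counts. The adult globins HBB, HBA1 and HBA2 had 0 counts, with limits of 0.164, 0.204 and 0.221 TPM. HBG2, a fetal globin, had 0.0925 and 0.0955 TPM. EPOR, the erythropoietin receptor, stood at 4.42 and 5.02 TPM, and GATA1, the erythroid and megakaryocytic regulator, at 1.83 and 1.49 TPM. GATA1 and EPOR thus exceeded 1 TPM in both libraries, and no listed red cell product did.

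Of 12 megakaryocyte genes, 2 were on and 6 were silent. ITGA2B is given above. GP1BB, a chain of the von Willebrand factor receptor, stood at 4.90 and 6.79 TPM. PF4, platelet factor 4, and GP9 had 0 counts, with limits of 0.174 and 0.104 TPM.

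Of 12 B cell genes, 4 were on and 3 were silent. CD79B, a signalling chain of the B cell receptor, stood at 29.3 and 26.7 TPM, with 91.4% of it in protein-coding transcripts. Its partner CD79A stood at 9.54 and 6.74 TPM. IGLL1, a surrogate light chain, stood at 2.56 and 2.24 TPM. PAX5, the B cell regulator, stood at 0.149 and 0.192 TPM. MS4A1, the antigen CD20, had 0 counts, with a limit of 0.0470 TPM. Both CD79 chains were therefore on without PAX5 or CD20.

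NK cell genes were on in 2 of 9 cases. PRF1, the pore-forming protein perforin, stood at 34.9 and 35.1 TPM, all of it in protein-coding transcripts. NCAM1, the antigen CD56, which is found on some acute myeloid leukemias, stood at 14.6 and 14.1 TPM. EOMES and TBX21, the T-box regulators of NK cells, had 0 counts, with limits of 0.0277 and 0.0307 TPM. The NK cell receptors KLRF1 and NCR1 were silent.

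Lists from neighbouring myeloid branches were also examined. Of 14 eosinophil, basophil and mast cell genes, 6 were on and 1 was silent. RNASE2 (487 and 411 TPM) and RNASE3 (29.1 and 25.8 TPM) were counted with the primary granule proteins and are not among them. PRG2, the eosinophil major basic protein, stood at 65.3 and 73.5 TPM, and EPX, eosinophil peroxidase, at 3.16 and 2.96 TPM. HDC, histidine decarboxylase, stood at 17.7 and 17.7 TPM, with 40.7% of it in protein-coding transcripts. The tryptases TPSAB1 and TPSB2 are near-identical and had a sum of 12.4 and 9.41 TPM. FCER1A, the α chain of the IgE receptor, had 0 counts, with a limit of 0.0937 TPM, and CPA3, the mast cell carboxypeptidase, stood at 0.194 and 0.134 TPM. EPX was 2184-fold and 2621-fold below MPO, its neutrophil paralogue.

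Of the 14 monocyte and macrophage genes in the tables, 6 were on and 2 were silent. FCN1, a ficolin of monocytes, stood at 41.2 and 42.0 TPM. FCGR1A (40.1 and 30.8 TPM) and CSF1R (14.8 and 13.0 TPM), given above, belong to this list as well. CD68, a lysosomal glycoprotein, stood at 19.2 and 17.2 TPM. CD14, the endotoxin coreceptor that defines monocytes, was low at 0.891 and 0.734 TPM, and C1QB had 0 counts. CD163, a scavenger receptor, stood at 1.06 and 1.83 TPM, but only 2.68% of that was in protein-coding transcripts. Of 9 dendritic cell genes, 3 were on, led by the factor BATF3 at 18.6 and 18.4 TPM, while CLEC9A and CD1C were silent. CD14 was thus below 1 TPM in a population with FCN1 above 40 TPM.

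Markers of tissues outside the blood were included as a measure of unrelated signal, and 5 of 14 were on. DES, the muscle filament desmin, stood at 36.3 and 35.4 TPM, with 52.4% of it in protein-coding transcripts, and with 2030 and 1940 counts the level was not set by counting error. EPCAM, an epithelial adhesion molecule, stood at 10.6 and 10.5 TPM. The keratin KRT8 stood at 2.55 and 2.89 TPM, whereas its partner KRT18 was silent at 0.0540 and 0.0690 TPM. COL1A2, COL3A1 and CDH5, which mark fibroblasts and endothelium, were silent, and KRT19 and INS had 0 counts. Single genes of unrelated tissues thus exceeded 10 TPM, with most other members of the list low or silent.

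The cells carried the RNAs of proliferation, with 13 of 15 genes on. PCNA, the sliding clamp of DNA replication, stood at 357 and 311 TPM. CCNB1, the mitotic cyclin, stood at 183 and 174 TPM, and MKI67, the proliferation antigen, at 43.2 and 44.7 TPM. CDKN2A and CDKN2B, which encode inhibitors of CDK4 and CDK6, had 0 counts, with limits of 0.116 and 0.0333 TPM. CDKN1A, the inhibitor p21, stood at 4.06 and 2.57 TPM. All 10 members of the BCL2 family that were listed were on, from BID at 110 and 107 TPM to BCL2L11, which encodes BIM, at 9.22 and 7.84 TPM. MCL1, the survival protein of myeloid cells, stood at 63.4 and 63.5 TPM and BCL2 at 15.8 and 13.9 TPM. Both listed INK4 inhibitors were therefore undetected beside abundant replication and mitotic RNAs.

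Some of the levels above rest in part on transcripts not annotated as protein-coding, and some shares have not been given so far. Of low genes, the share in protein-coding transcripts was 0% for TGM2, 9.73% for LTF, 23.9% for CPA3 and 44.0% for MEIS1. TGM2, LTF and CPA3 fell under 0.1 TPM in both libraries when only such transcripts were summed. Among genes that were on, the share was 33.8% for FLI1, 45.8% for ITGAX, 47.8% for RXRA and 47.9% for CD44. It was 48.1% for MMP25, 48.6% for ITGA2B, 49.6% for NPM1 and 49.99% for EPOR. It was 51.6% for ITGAM, 51.9% for STAB1, 53.9% for both RXRB and STRA6, 58.9% for SERPINB1, 60.2% for FLT3, 60.8% for NCAM1, 63.1% for ITGAL, 63.8% for FCGR1A, 64.0% for HOXA9, 65.5% for CD38 and 66.5% for ZBTB16.

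Agreement of the replicates was described over genes, which are not independent replicates, so no p is given. Over 29537 genes with a count in either library, Pearson's r of log2(TPM + 1) was 0.988 and Spearman's rho was 0.913. Over the 13907 genes that were on, they were 0.990 and 0.988. The common biological coefficient of variation, which is the spread between libraries beyond counting error, was 9.57% over 16908 genes. A chi-square of the LacZ counts per degree of freedom was 19.6, where counting error alone gives about 1, so the libraries were not copies of each other. They were taken as 2 samples, although this value does not show that they came from separate cultures. The same measure was 70.5 for the pair of ARID1A sg1 libraries and 86.8 for ARID1A sg5.

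Of 13340 genes that averaged at least 50 counts, 145 (1.09%) lay more than 2-fold apart in TPM between the replicates, 1 library a side, 61 being higher in replicate 2 and 84 higher in replicate 1. The median difference was 0.13 on the log2 scale and the 95th percentile was 0.60. Disagreement fell with depth: 113 of 2544 genes with 50 to 200 counts, 24 of 3310 with 200 to 1000, 8 of 6582 with 1000 to 10000 and 0 of 904 above that differed by more than 2-fold. Of the listed genes, 224 reached that depth, and 5 of these (2.23%, beside the 1.09% above) were over 2-fold apart, among them ABCA13, S100A8, EGR2 and VWF. S100A8 rested on 107 and 48 counts and differed by -1.11 on the log2 scale, replicate 2 over replicate 1. EGR2 rested on 168 and 72 counts and differed by -1.08. ABCA13 and VWF had at most 387 counts in a library.

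**Figure D5:**
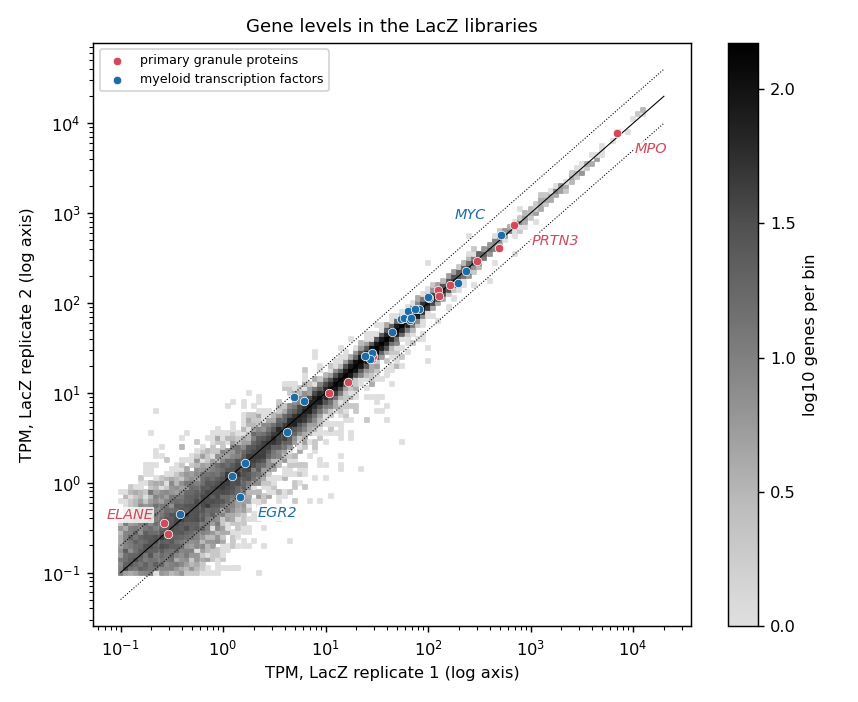
TPM in LacZ replicate 1 against replicate 2 on log axes for 20524 genes at 0.1 TPM or more in both, drawn as bins with a shade for the number of genes. The solid line marks equal levels and the dotted lines a 2-fold difference. Red points are primary granule genes and blue points myeloid transcription factors, all of which lie within 2-fold except EGR2.

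Small shifts shared by many genes were also present, as the plot of replicate 2 against replicate 1 cannot show at this scale. All 13 mitochondrial mRNAs were higher in replicate 2, by a median of 0.17 on the log2 scale. Of 82 ribosomal protein genes, 76 were lower in replicate 2, with a median of -0.11. TPM is a share of the whole, so a larger share of some RNAs lowers the others, and the part of these shifts in the differences of single genes was not tested. Of the 10 genes furthest apart, 5 in either direction, 3 were pseudogenes. ZCCHC3 had 818 counts in replicate 1 and 0 in replicate 2, at least 273-fold apart when 3 counts per library are taken as the limit. NUDT4B had 306 and 0, at least 102-fold. That limit covers counting error only and not how reads shared by transcripts were split, which was not tested. AC097637.1 had 0 and 236 counts, and the pseudogene AC023310.1 had 5 and 141. PHLPP1, a phosphatase gene, had 15 and 110 counts and differed by 2.32 on the log2 scale.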

How the data were processed

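RNA-sequencing libraries (TruSeq) of 2 LacZ control samples of NB4 cells were described, chosen by their labels, and the other 4 libraries were used only where stated. Reads were paired-end and were assigned to transcripts by the authors. The submitters' processing notes name kallisto, DESeq2 and build hg19, and the human transcript set is not given in the sources used here. The study's methods name a kallisto version for mouse reads alone. The deposited tables hold estimated counts, in which the authors' tool splits reads shared by transcripts, and TPM, for which the authors corrected each transcript for its effective length and set every library to the same sum.

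Of 196354 transcripts, 181857 (92.6%) matched a transcript of GENCODE 29 (GRCh38) by identifier. They carried 95.5% of counts in both LacZ libraries and 93.8% and 93.5% of TPM, and were summed to 52992 genes without rescaling. Unmatched transcripts were left out. Coordinates come from that match. Genes were called on at 1 TPM or more in both libraries and silent below 0.1 TPM in both. For a gene without counts, the TPM that 3 counts would give at the median effective length of its protein-coding transcripts, the larger of the values in the 2 libraries, was taken as its limit. Limits and intervals cover counting error only. Counts on a shorter transcript give more TPM: CEACAM8 had 0.147 TPM with 3 counts in replicate 2, where this limit was 0.0591 TPM.

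No contrast was made, so no test was run and no p-value is given. The common biological coefficient of variation was estimated with edgeR 4.0.16 (R 4.3.3) from rounded counts, TMM factors and an intercept, on genes kept by filterByExpr with a minimum count of 10, and was checked on simulated data. Ratios between replicates were taken over genes averaging 50 counts or more. Python 3.11.15 with pandas 2.3.3 and scipy 1.17.1 was used otherwise. The members and the 29 gene lists (365 genes) were chosen with earlier results of these data known. Any listed gene could be named, with ARID1A, the 20 most abundant genes, the 10 most abundant outside the ribosome, mitochondria and translation factors, and the 5 genes furthest apart in each direction. The neighbours of ELANE, the promoters of CTSG and PRSS57, ranks beyond 10 and the non-coding RNAs were added after values had been seen. RefSeq promoters (GRCh38.p14) were found for PRTN3, AZU1, CTSG and PRSS57 of 6 genes sought. Alternatives changed the transcripts summed, the scaling, the thresholds and the libraries. Some listed genes are counted with their lists but not reported by name.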

Additional observations from a re-analysis of the deposited data

Results flagged for a closer look

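Signal was present in transcripts that no gene value above includes. The 14497 transcripts without a match to the annotation took 6.18% of TPM in replicate 1 and 6.48% in replicate 2, with a mean of 6.33%. Of these, 2488 were at 1 TPM or more in both libraries and 33 were at 100 TPM or more. They were singled out because this signal lies outside every measurement described above and is far larger than a count of 0 allows, and the levels of genes to which they belong may be understated here. In the ARID1A-deficient libraries the share was between 5.37% and 6.31%.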

How the results depend on the processing

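No paired analysis was possible because no test and no contrast was made. Rescaling the matched transcripts to a full library raised the mean share of the 10 most abundant genes to 11.7% and the summed primary granule level to 9919 TPM. Leaving out mitochondrial genes changed them to 6.74% and 10517 TPM, and summing only protein-coding transcripts gave a granule sum of 8369 TPM. A limit of 0.5 TPM in place of 0.1 raised the silent genes of other lineages from 44 to 68. Spearman's rho rose from 0.913 to 0.976 with protein-coding transcripts only and to 0.988 with genes that were on. The coefficient of variation was 9.57% in the LacZ pair, over 16908 genes. Within the groups of all 6 libraries it was 16.6%, over 18514 genes. Genes over 2-fold apart numbered 145, against 262 with protein-coding transcripts only, 1063 at a mean of at least 10 counts and 13 at a mean of at least 500. The number of genes that were on, 13907, ranged from 9931 to 16983 and stayed within 1.5 times.

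Among 402 named genes, summing only protein-coding transcripts changed the class of 26, of which 12 were no longer on. These 12 include 6 non-coding RNAs, which have no such transcript, and HOXA9, HLA-DMA, CIITA, CD22 and CD163. Either rescaling changed the class of 2 genes. Over all alternatives, 1472 of 2001 gene values moved by less than 1 SD of the replicates, 360 rose and 169 fell by more. Leaving out either replicate moves a mean of 2 by less than 1 SD by construction. With 2 libraries, the SD is itself poorly known. A gene at 0 counts is limited only to the TPM of 3 counts, which depends on the transcript length taken.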
